A study of Saccharomyces cerevisiae with 35 samples.

Results

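Among the 6717 rows of a table of reads counted per gene in 4 *Saccharomyces cerevisiae* strains, 63 rows had almost no reads in at least 1 strain while another strain read them clearly. A row was taken when its counts summed to at most 9 over all libraries of a strain and its mean in another strain was 5 CPM or more, CPM being counts scaled to a library total of 1000000. The 63 genes were thus chosen by their levels in the strains, so those levels are described here without a test. The mean was taken over unstressed and NaCl libraries together, so a gene could reach 5 CPM through its NaCl libraries. At each time on its own, 46 genes reached 5 CPM in some strain that read them, and only for these is a test of the NaCl response given by gene. The other 17, of which 14 were below 5 CPM in the unstressed libraries, have their NaCl values described without a test. With unstressed libraries alone and at most 3 counts in the lacking strain, the rule gave 55 genes, 48 of them among the 63.

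The data are bulk RNA-seq of rRNA-depleted RNA from the diploid laboratory strain BY4743, the vineyard strain BC187, the West African strain NCYC3290 and the North American oak strain YPS128, each grown in YPD at 30°C and sampled unstressed (0 h) and after 30 min or 3 h in 0.7 M NaCl. The 35 libraries are 3 replicate cultures per strain and time point, except that YPS128 has 2 at 30 min, and the labels name 0.7 M NaCl even where the time is 0 h. BY4743 is homozygous for his3Δ1, leu2Δ0 and ura3Δ0 and heterozygous for lys2Δ0 and met15Δ0, whereas no engineered allele is given for BC187, NCYC3290 and YPS128. Reads of every strain were mapped to the genome of S288c, the parent lineage of BY4743, so that a gene missing from a strain, a gene present but silent, and a gene too diverged from S288c for its reads to map cannot be told apart in these counts.

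The regions next to yeast telomeres carry gene families for sugar, metal and toxin handling that differ in content between strains. Ty elements are retrotransposons that move by an RNA copy, so their number and place differ between strains, and their near-identical copies compete for the same reads. Introns of the mitochondrial genes *COX1*, *COB* and the large rRNA are mobile too: many encode a maturase, a reverse transcriptase or a homing endonuclease, and each can be present in one strain and missing in the next.

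Library totals ran from 3.63 to 5.87 in units of 1000000 counts, and 3 counts over all libraries of a strain, taken here as the floor for a strain at 0, correspond to between 0.0677 CPM in BY4743 and 0.0820 CPM in YPS128. One library stood apart. In BY4743 replicate 1 at 30 min, 38 rows had at least 50 counts and over 10 times the CPM of every other BY4743 library. *VAR1*, YFL013W-A and YOR082C passed the limit on level only through that library, with 673 counts against 6 to 19 in the other BY4743 libraries for *VAR1*, 2067 against 1 to 8 for YFL013W-A and 461 against 0 to 4 for YOR082C. Without it, a setting picked after looking at the values, the rule gave 60 genes. The libraries are bulk RNA, so fewer cells with a transcript and less transcript per cell cannot be told apart.

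BC187 lacked counts for 37 of the 63 genes, NCYC3290 for 28, YPS128 for 26 and BY4743 for 6. Of the 97 gene-by-strain combinations without counts, 68 were at exactly 0 over all libraries of the strain. The sets differed in size: 16 genes were lacking in BC187 alone, 10 in NCYC3290 alone, 8 in YPS128 alone and 2 in BY4743 alone. A further 20 were lacking in 2 strains, and 7 were lacking in BC187, NCYC3290 and YPS128 together, which leaves BY4743 as the only strain above the limit. BY4743 had the highest mean CPM for 31 of the 63 genes.

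**Figure D1:**
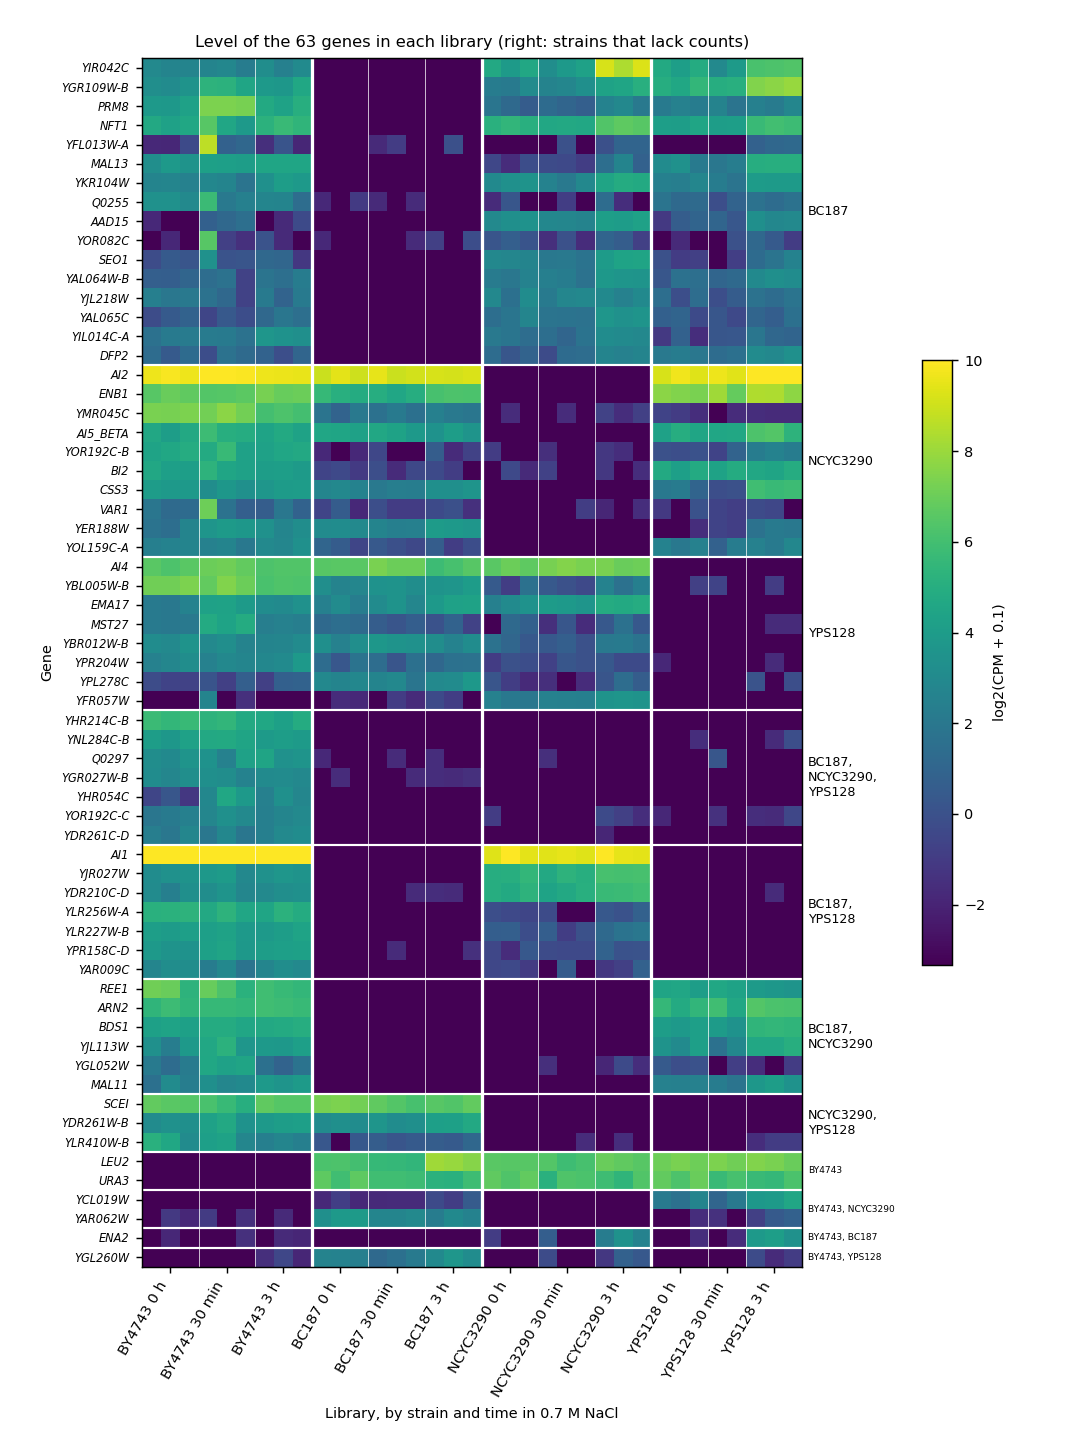
Level of each of the 63 genes (rows) in each of the 35 libraries (columns, grouped by strain and time in 0.7 M NaCl), coloured by log2(CPM + 0.1) and grouped by the strains that lack counts, which are named on the right. The uppermost block is dark across BC187, the strain it lacks, and 1 BY4743 library at 30 min stands out for YFL013W-A, YOR082C and *VAR1*.

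The genes fell into a few kinds by place and sequence. Ty element rows made up 19 of the 63 (30.2%, against 1.35% of all rows), mitochondrial rows 8 (12.7%, against 0.283%), and rows outside Ty elements within 25 kb of a chromosome end 22 (34.9%, against 4.88%). The remaining chromosomal genes, farther than 25 kb from an end, numbered 10 (15.9%, against 83.3%), and 4 rows had no match in the annotation. Outside Ty elements, 22 of 32 nuclear genes with coordinates (68.8%) lay within 25 kb of an end, against 5.54% of all such rows. All 100-base windows occurred once in the S288c genome for 28 of 59 genes with coordinates (47.5%, against 93.6% of all rows), and fewer than 50% of the windows did for 23 (39.0%, against 3.94%).

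**Figure D2:**
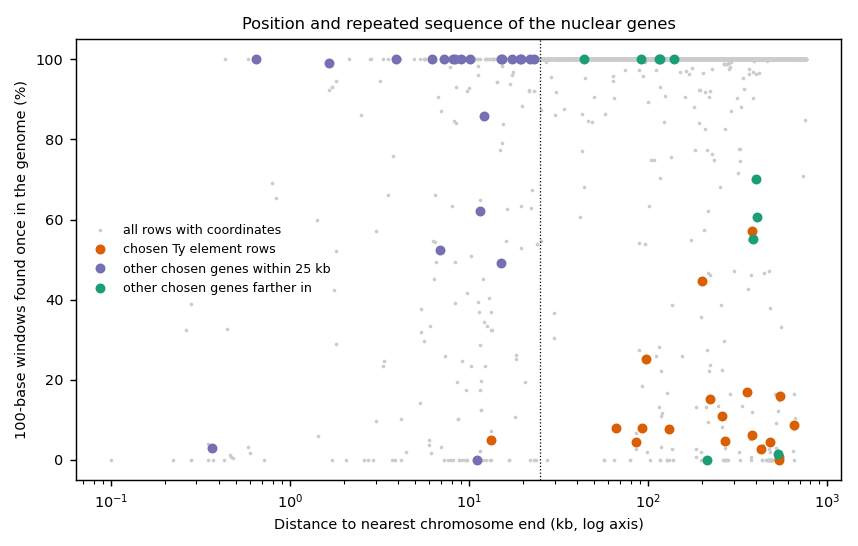
Distance of each nuclear gene from the nearest chromosome end (kb, log axis) against the share of its 100-base windows found once in the genome. Grey points are all rows with coordinates. Of the coloured points, 22 genes outside Ty elements lie left of the dotted line at 25 kb, and the Ty element rows run from 0 to 57.0% unique.

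Mitochondrial intron rows were lacking in BC187, NCYC3290 and YPS128, each in its own combination. The introns are shown first as sequence, because they carry the rows that are lacking. Each line runs from the last exon bases, in capitals, into the first bases of the intron, on the plus strand of the mitochondrial genome of S288c R64. The *AI1* intron spans MT:13987-16434, *AI2* MT:16471-18953, *AI4* MT:20985-21994 and *AI5_BETA* MT:23747-25317, all within *COX1*. The *BI2* intron spans MT:37737-39140 in *COB*, and the *SCEI* intron MT:60725-61867 in the large rRNA gene.
AI1: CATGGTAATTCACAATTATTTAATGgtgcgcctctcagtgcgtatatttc
AI2: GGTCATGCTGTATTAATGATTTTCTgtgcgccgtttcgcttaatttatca
AI4: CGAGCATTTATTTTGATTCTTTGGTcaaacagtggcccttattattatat
AI5_BETA: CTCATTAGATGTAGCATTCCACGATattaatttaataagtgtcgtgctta
BI2: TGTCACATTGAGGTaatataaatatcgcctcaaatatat
SCEI: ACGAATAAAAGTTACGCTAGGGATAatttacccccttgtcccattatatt
Without the *SCEI* intron the large rRNA gene reads through from exon to exon, with the second exon in capitals here. I-SceI, the endonuclease the intron encodes, is known to cut this joined sequence and so to spread the intron into copies of the gene that lack it.
SCEI exons joined: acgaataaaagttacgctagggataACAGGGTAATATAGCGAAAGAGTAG

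*AI1* encodes a reverse transcriptase of a group II intron, and it was read only in BY4743 and NCYC3290. BY4743 had 5686, 7987 and 6800 counts before NaCl, 7572, 5521 and 5079 at 30 min, and 4839, 5372 and 6932 at 3 h. NCYC3290 had between 2817 and 6199 counts in its 9 libraries. BC187 and YPS128 had 0 in all 17 of theirs, at least 17619.5-fold and 15362-fold below the BY4743 mean of 1259.7 CPM.

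*AI2*, which encodes the reverse transcriptase of the next *COX1* intron, was instead without counts in NCYC3290. Its counts were 3372 to 5279 in BY4743, 2273 to 3516 in BC187 and 2804 to 6917 in YPS128, and 0 in each of the 9 NCYC3290 libraries. *AI5_BETA*, whose reading frame is annotated as a DNA endonuclease, followed the same division, with 86 to 280 counts in BY4743, 46 to 122 in BC187, 84 to 416 in YPS128 and 0 in NCYC3290. *AI4*, an intron-encoded endonuclease, was lacking in YPS128 only, where all 8 libraries were at 0 while the other strains had between 239 and 934 counts.

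*SCEI* split the strains differently. BY4743 had 127 to 581 counts and BC187 329 to 821, whereas all libraries of NCYC3290 and YPS128 were at 0, at least 1573-fold and 1372-fold below the BC187 mean of 113 CPM. *BI2*, a maturase that helps to splice its own *COB* intron, was not at 0 in any strain. It had 70 to 196 counts per library in BY4743 and 75 to 150 in YPS128, 21 counts in all in BC187 and 9 in all in NCYC3290, which was 116-fold below YPS128 (95% counting interval 61.4 to 255).

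The exons of *COX1* and *COB* were read in all 4 strains. In the order BY4743, BC187, NCYC3290 and YPS128, mean *COX1* levels were 404, 449, 800.2 and 825 CPM, and mean *COB* levels were 255, 328, 422 and 480 CPM. Of the 10 mitochondrial intron genes listed, 0 had at most 9 counts in BY4743, while NCYC3290 had 5 such genes, YPS128 had 3 and BC187 had 1. One of those in NCYC3290, *BI3*, was low in every strain, with 4 counts there and 51 in all in BY4743. *AI3*, outside the rule, came close to it in YPS128, with 20 counts over 8 libraries against 1946 in BC187. The intron rows of *COX1* and *COB* share exon bases with their host row (43.1% of the *AI4* row overlaps other rows), and how reads in shared bases were assigned is not given in the sources used here.

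**Figure D3:**
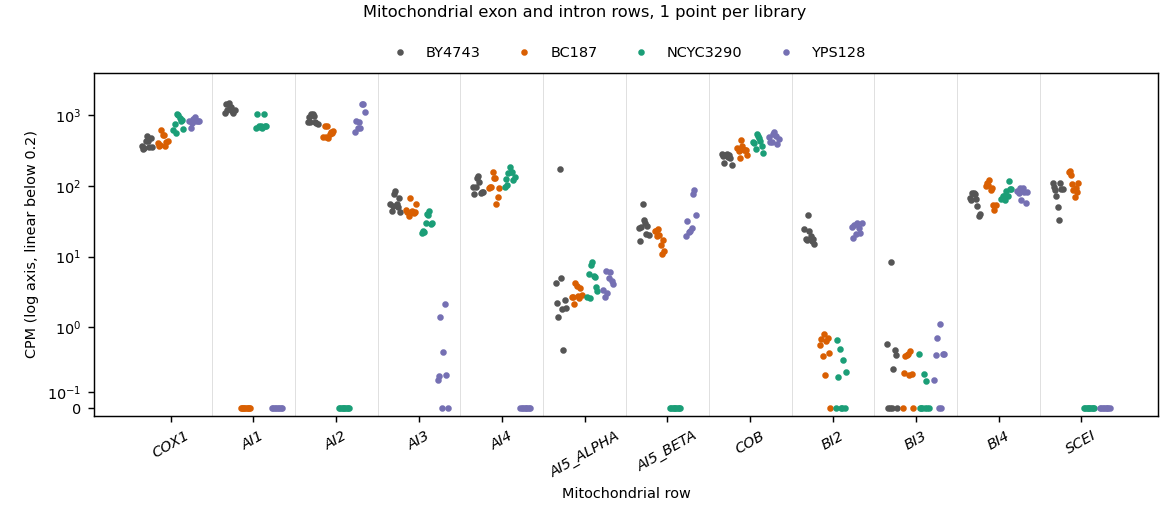
CPM of mitochondrial exon and intron rows (log axis, linear below 0.2 CPM), 1 point per library, coloured by strain. *COX1* and *COB* are read in every library, while *AI1*, *AI2*, *AI4*, *AI5_BETA* and *SCEI* sit at 0 in whole strains.

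Other mitochondrial rows also differed between the strains. Q0255, annotated as a maturase-like protein, had 15 to 58 counts in 8 BY4743 libraries and 274 in replicate 1 at 30 min, and 5 in all in BC187, so it met the rule with or without that library. Q0297, a mitochondrial ID that the annotation does not hold, had 24 to 90 counts in every BY4743 library and 3, 1 and 4 in all in BC187, NCYC3290 and YPS128.

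Genes near chromosome ends lacked counts in runs of neighbours, mostly in BC187. On the left end of chromosome I, 7 adjacent annotated rows from I:2480-22685 held 0 counts in BC187 and 492, 1077 and 549 in BY4743, NCYC3290 and YPS128. They include *SEO1*, a putative permease, and YAL065C and YAL064W-B, which share sequence with the flocculin gene *FLO9*. The rows on either side of the run, *PAU8* and *FLO9*, were read in BC187, with 76 and 130 counts. They belong to the seripauperin and flocculin families, and whether these reads came from other family members was not tested. On chromosome XI a run of 4 rows reached the right end, XI:653080-663289, and held 1 count in BC187 against 2426 in BY4743, 2880 in NCYC3290 and 1696 in YPS128.

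*NFT1*, a putative multidrug transporter of the ABC family, opens that run. It had 0 counts in the 9 BC187 libraries, 103 to 495 in NCYC3290 and 62 to 304 in YPS128. In BY4743 it had 56 to 261 in 8 libraries and 466 in replicate 1 at 30 min. BC187 was thus at least 726-fold below the NCYC3290 mean of 51.9 CPM. The next gene, YKR104W, was also at 0 in BC187 and had 13 to 129 counts in the other libraries.

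Near the left end of chromosome XV, BC187 and NCYC3290 had few or no counts over different stretches. In BC187 the run XV:585-14654 reached the chromosome end, with 8 rows and 4 counts against 1255 in BY4743. It holds *AAD15*, a putative aryl-alcohol dehydrogenase, and *BDS1*, a sulfatase thought to have come from bacteria. These genes carried most counts of the run: *BDS1* had 1114 of the 1255 in BY4743, and *AAD15* 481 of 517 in NCYC3290. The other rows of the run were thus little read in those strains as well. *BDS1* had 92 to 180 counts in BY4743, 49 to 216 in YPS128 and 0 in BC187 and NCYC3290, at least 358-fold below the YPS128 mean of 25.6 CPM. In NCYC3290 a run XV:14313-21311, whose first row is the last row of the BC187 run, held 0 counts in 4 rows against 5837 in BY4743, 2260 in BC187 and 9277 in YPS128.

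That NCYC3290 run contains *ENB1*, the transporter of the bacterial siderophore enterobactin in its ferric form. *ENB1* had 373 to 739 counts in BY4743, 112 to 362 in BC187 and 516 to 1562 in YPS128, and 0 in all 9 NCYC3290 libraries, at least 3173-fold below the YPS128 mean of 227 CPM. *ARN2*, a related transporter for another siderophore, lies 8.35 kb from the left end of chromosome VIII. It had 173 to 311 counts in BY4743 and 111 to 365 in YPS128, and 0 in BC187 and NCYC3290. NCYC3290 was therefore without reads from *ARN2* and *ENB1* together, while *ARN1* and *SIT1*, the other transporters of the family, had 2500 and 4438 counts in that strain. Of the 13 siderophore and iron reductase genes listed, 1 had at most 9 counts in BC187, 2 in NCYC3290 and 0 in BY4743 and YPS128.

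A pair of genes of the *MAL1* locus near the right end of chromosome VII, VII:1070293-1075813, was at 0 in BC187. *MAL13* encodes the locus activator and *MAL11* an alpha-glucoside permease, while *MAL12*, the maltase gene of the locus, had 21 counts there. *MAL11* had 15 to 88 counts in BY4743 and 15 to 80 in YPS128 and was at 0 in NCYC3290 as well. *MAL13* had 50 to 132 counts in BY4743, 1 to 27 in NCYC3290, and 14 to 51 in YPS128 at 0 h and 30 min and at least 130 at 3 h. Of 13 maltose and isomaltose genes listed, 5 had at most 9 counts in BC187, 4 in NCYC3290, 3 in YPS128 and 2 in BY4743. These counts include *IMA3* and *IMA4*, at 0 in every strain. They also include *MPH2*, at 0 in the wild strains but with only 47 counts in all in BY4743. Of all 6717 rows, 743 had at most 9 counts in at least 1 strain and 403 had so in all 4 strains. Other members of the family were read in BC187: *MAL31* and *MAL33* had 1739 and 867 counts there.

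A pair of neighbours on chromosome X, YJL218W and *REE1* (X:21973-23729), also had 0 counts in BC187. *REE1*, which takes part in the control of enolase expression, had 139 to 710 counts in BY4743, 56 to 125 in YPS128 and 0 in NCYC3290. YIR042C, of unknown function and 3.90 kb from the right end of chromosome IX, was at 0 in BC187 and had 18 to 48 counts in BY4743, 28 to 394 in YPS128 and 37 to 3423 in NCYC3290. Its spread within NCYC3290 belongs to the NaCl response given below.

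YPS128 lacked fewer such genes. YFR057W, 0.645 kb from the right end of chromosome VI, had 18 to 66 counts in NCYC3290 and 0 in YPS128. BY4743 read it in 2 libraries only, with 32 counts in replicate 1 at 30 min and 1 in replicate 3, and BC187 had 10 counts in all. YPR204W, a helicase gene of a Y' element 0.365 kb from the right end of chromosome XVI, had 25 to 86 counts in BY4743 and 2 in all in YPS128, but only 2.93% of its windows occur once and it cannot be told from other Y' copies. BC187 had the most counts of YGL260W, 11 to 59 per library against 5, 17 and 6 in all in BY4743, NCYC3290 and YPS128, and 52.3% of the windows of that row occur once. It also had the highest counts of YAR062W (20 to 80 per library), a copy of a flocculin-like pseudogene none of whose windows are unique.

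Genes away from chromosome ends included the marker genes of BY4743, which check the labels. *LEU2*, of leucine synthesis, and *URA3*, of pyrimidine synthesis, had 0 counts in all 9 BY4743 libraries. *URA3* had 161 to 550 counts in BC187, 143 to 567 in NCYC3290 and 191 to 623 in YPS128, at least 1126-fold above BY4743 in YPS128. *LEU2* had 209 to 1169, 267 to 735 and 571 to 776. The row next to *LEU2*, the Ty2 element YCL019W at III:85102-90415, was at 0 in BY4743 and NCYC3290 and had 7 to 113 counts in YPS128. *HIS3*, carried as his3Δ1, and *LYS2* and *MET17* (also named *MET15*), heterozygous in BY4743, were read there, with 2275, 12108 and 8530 counts.

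*PRM8* and *MST27* are neighbours on chromosome VII of the DUP240 family of membrane proteins, of which *MST27* is tied to vesicle traffic. *PRM8* had 74 to 841 counts in BY4743, 7 to 35 in NCYC3290, 15 to 33 in YPS128 and 0 in BC187. *MST27* had 21 to 143 in BY4743, 2 to 12 in BC187, 0 to 13 in NCYC3290 and 2 in all in YPS128. YGL052W, whose ID lies between them in the numbering and which the annotation does not hold, was at 0 in BC187 and had at least 9 counts in every BY4743 library. Windows that occur once made up 70.2% of *PRM8* and 60.6% of *MST27*, the rest being shared chiefly with *PRM9* and *MST28*. *DFP2* of the same family was also at 0 in BC187, with 3 to 49 counts in the other strains, and of the 10 family genes listed 2 had at most 9 counts in BC187 and 1 in YPS128. *EMA17*, unique in sequence, was at 0 in YPS128 and had 22 to 169 counts elsewhere.

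*ENA2* and YHR054C show how copies bear on such counts. In S288c *ENA2* is the middle gene of a tandem array of sodium pumps with *ENA1* and *ENA5*, which export sodium from the cell. Over 3276 coding bases it differs from *ENA1* at 43 positions (98.7% identity) and from *ENA5* at 34, and 1.45% of its 100-base windows occur once. The stretch where *ENA1* and *ENA2* differ most is printed with the bases that vary among the copies in capitals. It runs from coding base 183 to 262 on the minus strand of S288c R64, at IV:538206-538285 for *ENA1*, IV:534321-534400 for *ENA2* and IV:530436-530515 for *ENA5*, and *ENA2* and *ENA5* are alike across it.
ENA1: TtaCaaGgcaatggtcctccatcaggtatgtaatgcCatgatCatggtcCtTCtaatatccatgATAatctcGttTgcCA
ENA2: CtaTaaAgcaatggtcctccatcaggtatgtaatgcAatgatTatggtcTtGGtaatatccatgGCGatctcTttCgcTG
ENA5: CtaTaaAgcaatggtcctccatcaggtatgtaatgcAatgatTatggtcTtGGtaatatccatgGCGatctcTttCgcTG
*ENA2* had 4 counts over the 9 BY4743 libraries, 0 in BC187, 108 in NCYC3290 and 196 in YPS128, while *ENA1* had 23553, 6645, 5888 and 6970 and *ENA5* 1572, 4086, 4790 and 6186. How reads that fit several copies were assigned is not given in the sources used here. The share of *ENA2* in the reads of the array therefore cannot be told from these rows. The study's DNA reads put *ENA1* depth in NCYC3290 and YPS128 near that of single-copy genes, and higher in BC187. It also describes duplicated *ENA* genes in BY4743. Counts on the *ENA2* row in NCYC3290 and YPS128 thus do not show that these strains carry that gene.

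YHR054C, at VIII:213185-214249, lies between *CUP1-1* and *CUP1-2*, the metallothionein genes, and its 1065 bases are identical to part of *RSC30*, a subunit gene of a chromatin remodelling complex. None of its windows is unique. It was nonetheless read only in BY4743, with 3, 6 and 2 counts before NaCl and 36, 101 and 55 at 30 min, and was at 0 in all 26 libraries of BC187, NCYC3290 and YPS128. *CUP1-1* and *CUP1-2* themselves, which are copies of each other, had 0 and 1 counts over all 35 libraries.

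Ty element rows numbered 19, fewer than the 22 rows outside Ty elements within 25 kb of a chromosome end. Of 61 Ty1 rows 13 were among the 63 genes, of 20 Ty2 rows 4, of 3 Ty3 rows 1 and of 5 Ty4 rows 1. Summed over all rows of the family, Ty1 had a median of 556 CPM in BY4743 (349 to 762), 111 in NCYC3290 (74.2 to 238), 26.1 in BC187 (15.6 to 38.6) and 25.1 in YPS128 (8.82 to 148). BY4743 libraries did not overlap with those of the other strains. The sum includes the 13 rows among the 63 genes, each chosen because a strain other than BY4743 lacked it. Of these, YMR045C and YBL005W-B had means of 130 and 121 CPM in BY4743. The gap therefore rests in part on values that the rule used, with reads mapped to the parent lineage of BY4743. Ty2 was lowest in NCYC3290, with a median of 2.08 CPM and a highest library of 3.78, against lowest libraries of 79.3 in BY4743, 31.7 in BC187 and 22.0 in YPS128. The 4 Ty2 rows among the 63 genes, all chosen as lacking in NCYC3290, are part of that sum.

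Ty3 and Ty4 had no counts in whole strains. All 3 Ty3 rows together had 0 counts in BC187, and all 5 Ty4 rows had 0 in BC187 and in NCYC3290. In each strain the lowest and highest Ty3 sums were those of a single row, YGR109W-B. The 0 of Ty3 in BC187 thus restates how that row was chosen. The Ty4 sum likewise includes YJL113W, which was chosen for lacking counts in BC187 and NCYC3290. YGR109W-B, the Ty3 row among the 63 genes, had 89 to 195 counts at 30 min in BY4743 and 736, 994 and 1175 at 3 h in YPS128. YJL113W, the Ty4 row, had 27 to 155 counts in BY4743 and 11 to 156 in YPS128. For a single Ty1 or Ty2 row the share of windows that occur once was between 0 and 25.1%. The Ty1 row YGR027W-B, at 0%, still had 23 to 54 counts per library in BY4743. Since the assignment of reads that fit several copies is not given, the counts of a row cannot be tied to that copy alone.

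**Figure D4:**
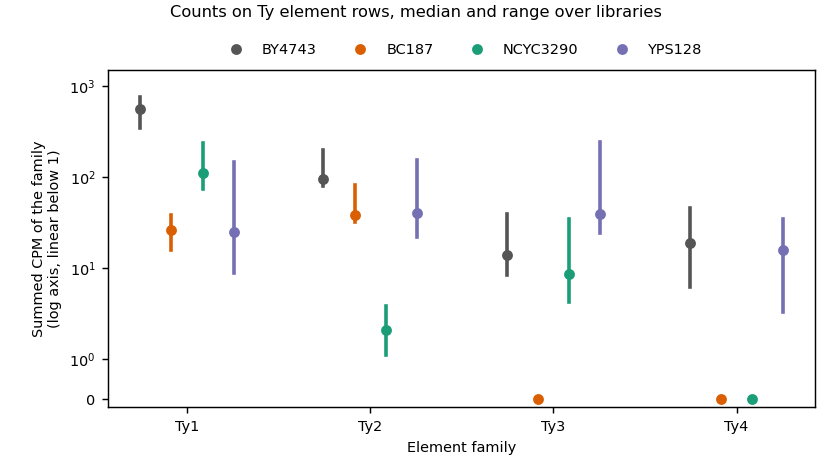
Summed CPM of all rows of each Ty element family (log axis, linear below 1 CPM), as the median (point) and range (line) over the libraries of each strain. Ty3 is at 0 in BC187, Ty4 is at 0 in BC187 and NCYC3290, and Ty1 in BY4743 lies above every library of the other strains. The sums include the Ty rows among the 63 genes, which were chosen by their levels in the strains.

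Some Ty1 rows were highest in NCYC3290, not in BY4743. YJR027W had 109 to 415 counts there and 28 to 68 in BY4743, and YDR210C-D 85 to 301 and 26 to 58. BC187 and YPS128 were at 0 for YJR027W and had 3 and 1 counts in all for YDR210C-D. The Ty1 rows YMR045C and YBL005W-B had means of 130 and 121 CPM in BY4743. The Ty1 row YHR214C-B, 13.3 kb from the right end of chromosome VIII, had 93 to 292 counts in every BY4743 library and 0 in the other 26. On chromosome IV a Ty2 and a Ty1 element side by side, YDR261W-B and YDR261C-D, formed a run IV:981462-992349 with 1 count in NCYC3290 and 0 in YPS128, where the genes on either side had 1716 to 4742.

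The limits of the rule fell among closely spaced values. Just inside the limit on level were *ENA2* (5.35 CPM in YPS128), *DFP2* (5.48 CPM in YPS128) and YDR261C-D (5.79 CPM in BY4743). Just outside it were YDR365W-B (4.81 CPM), YHL048C-A (4.75 CPM), *PAU9* (4.74 CPM) and *COS2* (4.69 CPM). At the limit on counts, *BI2* and YOR192C-C had 9 counts in NCYC3290, while YMR045C with 10 in YPS128 and YFR057W with 10 in BC187 were just outside for those strains.

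The response of the genes to NaCl was then tested in each strain that had counts, over all 5997 genes that passed the filter on low counts, with edgeR's quasi-likelihood test and Benjamini-Hochberg adjusted p below 0.05. Of the 63 genes 62 passed that filter. YPS128 replicate 3 at 3 h was outside the fit, so that YPS128 entered with 3 libraries at 0 h and 2 at each later time. The counts over all genes tested include those that reached 5 CPM through NaCl libraries, so the count over the 46 genes is given beside each.

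In BY4743 at 30 min, 14 of 56 genes rose and 8 fell, which is 39.3% against 62.6% of all genes called (33.3% rose and 29.3% fell), and of the 46 genes 7 of 43 tested rose and 8 fell. Scaled by library totals instead of TMM, the split over the 56 was 19 risen and 3 fallen, and over the 43 it was 11 and 3. Without the library of replicate 1 at 30 min 18 of 55 tested were called, 10 risen and 8 fallen, of which 17 were shared. Without the whole replicate 1 culture 9 rose and 5 fell, and without replicate 2 5 fell. At 3 h 10 rose and 5 fell (26.8%, against 44.2% of all genes, 23.8% rising and 20.4% falling), and 8 and 5 of the 43. Without the replicate 1 culture the 3 h counts were 5 risen and 6 fallen.

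In BC187, 1 gene rose and 4 fell of 26 tested at 30 min (of all genes 18.2% and 15.8%, together 34%), and 1 and 4 of the 21 tested of the 46 genes. Without replicate 1 none of the 26 rose and 3 fell, and without replicate 2 or 3 the counts were 1 and 2. At 3 h 4 rose and 6 fell (30.6% and 23.9%, together 54.6%, with 7 and 4 by library totals), and 4 and 5 of the 21. In NCYC3290, 2 of 34 rose and 2 fell at 30 min (16.5% and 10.8%, together 27.3%, with 2 and 1 by library totals), and 2 and 2 of the 24 tested of the 46 genes. Without replicate 1 or 3 the counts of the 34 were 1 and 1. At 3 h 11 rose and 2 fell (32.4% and 27.4%, together 59.8%, with 21 and 1 by library totals), and 6 and 2 of the 24, with 13 and 1 by library totals. Without NCYC3290 replicate 2 the 3 h counts were 5 and 1, and without replicate 3 they were 9 and 1.

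In YPS128, 0 rose and 2 fell of 36 at 30 min (8.5% and 5.94%, together 14.4%), and 0 and 2 of the 26 tested of the 46 genes. Of the 36, 6 had an unadjusted edgeR p below 0.05 in either direction, and DESeq2's test also called 0 risen and 2 fallen. Without replicate 1 or 3 no gene rose and 1 fell, and without replicate 2 the counts were 1 and 1. At 3 h 14 rose and 5 fell (34.1% and 29.1%, together 63.2%, with 23 and 3 by library totals), and 11 and 4 of the 26, with 17 and 2 by library totals. Without YPS128 replicate 1 the 3 h count of risen genes was 8. Over the 46 genes the median log2 change at 30 min was -0.04, -0.08, -0.35 and -0.09 in BY4743, BC187, NCYC3290 and YPS128, against 0.06, -0.03, -0.004 and -0.01 over all genes. At 3 h it was 0.005, 0.22, 0.35 and 0.51, against 0.04, 0.08, 0.07 and 0.09.

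YIR042C, all of whose windows are unique, rose steeply in NCYC3290. In NCYC3290 it went from 127, 68 and 128 counts before NaCl through 37, 66 and 89 at 30 min to 3423, 1383 and 2634 at 3 h. The 3 h libraries lay far above all others. The change was 3.92 ± 0.22 (log2, SE; 15.1-fold; edgeR adjusted p = 5.9e-13), higher in 3 of 3 cultures. In YPS128 it rose by 0.998 ± 0.24 (adjusted p = 0.00079) with 305, 377 and 394 counts at 3 h against 85 to 150 before, and in BY4743 it had 27 to 48 counts at 3 h against 35 to 40 before. The response in BY4743 minus that in NCYC3290 was -3.92 ± 0.35 (adjusted p = 4.3e-08), and that in NCYC3290 minus that in YPS128 was 2.92 ± 0.33 (adjusted p = 4.7e-06).

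*CSS3*, in the run that NCYC3290 lacked, rose in YPS128 at 3 h. It had 22, 22 and 8 counts before NaCl, 3 and 4 at 30 min, and 254, 250 and 269 at 3 h, a change of 3.22 ± 0.25 (adjusted p = 1.1e-10). All 3 h libraries were above the rest. The change at 30 min was -1.94 ± 0.47 (adjusted p = 0.0057), a call lost without YPS128 replicate 2 (-1.43, adjusted p = 0.18). In BY4743 and BC187 the change at 3 h was -0.15 and 0.40, and minus that in YPS128 it was -3.38 ± 0.33 and -2.82 ± 0.35 (adjusted p = 5.9e-08 and 7.4e-06). *ENB1* in the same run had no change past the threshold in BY4743 or YPS128. In BC187 it rose by 0.76 ± 0.28 at 3 h (adjusted p = 0.024), a call lost without any 1 of the 3 cultures (adjusted p = 0.061 without replicate 1, 0.15 without replicate 2 and 0.11 without replicate 3).

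*PRM8* rose in BY4743 at 30 min. It had 74, 75 and 113 counts before NaCl and 841, 700 and 591 at 30 min (3.08 ± 0.23, adjusted p = 6.9e-11), and the 30 min libraries lay above all others. At 3 h *PRM8* was up by 0.61 ± 0.24 (adjusted p = 0.040, and 0.21 and 0.066 without BY4743 replicate 1 or 2). The *PRM8* response in BY4743 was larger than in NCYC3290 by 3.32 ± 0.51 and in YPS128 by 3.02 ± 0.45 (adjusted p = 2.8e-05 and 1.6e-05). *MST27* and the unannotated YGL052W beside it reached 5 CPM in the unstressed libraries of no strain, so their values are described only. *MST27* had 23, 22 and 23 counts before NaCl, 143, 89 and 113 at 30 min and 21 to 29 at 3 h, and YGL052W 14 to 26, then at least 81, then 9 to 19.

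The promoters of *PRM8*, *MST27* and YIR042C are printed because their counts after NaCl lay well above those before it in BY4743 or NCYC3290, each from 250 bases before to 50 bases after the coding start in S288c R64. Capitals mark CCCCT on either strand, the core of the stress response element bound by Msn2 and Msn4. The windows are VII:402339-402638 and VII:403437-403736 on the plus strand and IX:435934-436233 on the minus strand.
PRM8: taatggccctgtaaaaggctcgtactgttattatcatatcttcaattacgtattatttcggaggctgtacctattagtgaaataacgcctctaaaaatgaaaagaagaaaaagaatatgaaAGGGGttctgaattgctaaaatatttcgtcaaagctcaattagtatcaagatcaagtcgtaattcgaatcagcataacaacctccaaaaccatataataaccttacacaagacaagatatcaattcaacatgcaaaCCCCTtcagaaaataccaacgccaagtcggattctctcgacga
MST27: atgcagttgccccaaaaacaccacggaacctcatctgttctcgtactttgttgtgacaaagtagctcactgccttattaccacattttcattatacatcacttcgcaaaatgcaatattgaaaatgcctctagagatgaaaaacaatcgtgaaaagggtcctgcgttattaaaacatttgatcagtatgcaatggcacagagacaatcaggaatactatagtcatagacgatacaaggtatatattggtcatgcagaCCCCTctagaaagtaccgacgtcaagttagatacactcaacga
YIR042C: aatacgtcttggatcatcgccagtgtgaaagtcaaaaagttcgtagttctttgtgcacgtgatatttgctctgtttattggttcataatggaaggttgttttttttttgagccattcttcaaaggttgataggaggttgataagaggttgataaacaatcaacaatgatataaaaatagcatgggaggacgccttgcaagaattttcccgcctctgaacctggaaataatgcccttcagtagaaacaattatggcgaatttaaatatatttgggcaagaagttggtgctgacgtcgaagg
The letters occurred 2 times in the *PRM8* window, 1 time before the coding start and 1 time inside the coding sequence. They occurred 1 time in the window of *MST27*, also inside the coding sequence, and not in that of YIR042C. Of 6005 promoters of the same length 21.6% held them, and of 31 of the genes outside Ty elements 7 (22.6%) did. TGCACCC, the letters of the iron-responsive element bound by Aft1, were in 2 of these 31 (*ENB1* and *NFT1*) and in 1.28% of all promoters.

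*LEU2* and *URA3* were tested in the other strains, which read them. In BC187 *LEU2* had 400, 347 and 331 counts at 0 h, 235, 223 and 209 at 30 min (-0.68 ± 0.19, adjusted p = 0.0080, and 0.12 without BC187 replicate 2) and 1169, 1160 and 737 at 3 h (1.45 ± 0.19, adjusted p = 5.3e-07). The 3 h libraries lay above all others of that strain. The change at 3 h in NCYC3290 was -0.38 ± 0.19 (adjusted p = 0.084), and in YPS128 it was -0.63 ± 0.21 (adjusted p = 0.012, and 0.16 without YPS128 replicate 2), while library totals turned both, to 0.21 and 0.17. The rise in BC187 differed from NCYC3290 by 1.83 ± 0.26 and from YPS128 by 2.08 ± 0.28 (adjusted p = 6.1e-05 and 2.2e-05). *URA3* fell at 3 h in BC187, NCYC3290 and YPS128, by 1.30 ± 0.20, 1.34 ± 0.20 and 1.70 ± 0.24 (adjusted p = 7.3e-06, 3.3e-06 and 1.2e-06).

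*ENA2* and YHR054C reached 5 CPM only through their NaCl libraries, and their values are described without a test. *ENA2* had 2, 0 and 0 counts in NCYC3290 before NaCl and 28, 47 and 25 at 3 h, and 0, 0 and 1 in YPS128 before and 60, 83 and 51 at 3 h. No library before NaCl came near those at 3 h. YHR054C in BY4743 had 2 to 6 counts before NaCl, 36 to 101 at 30 min and 23 to 51 at 3 h. Both rows share nearly all their sequence with a gene that was also read, and the part of that in these values was not tested.

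**Figure D5:**
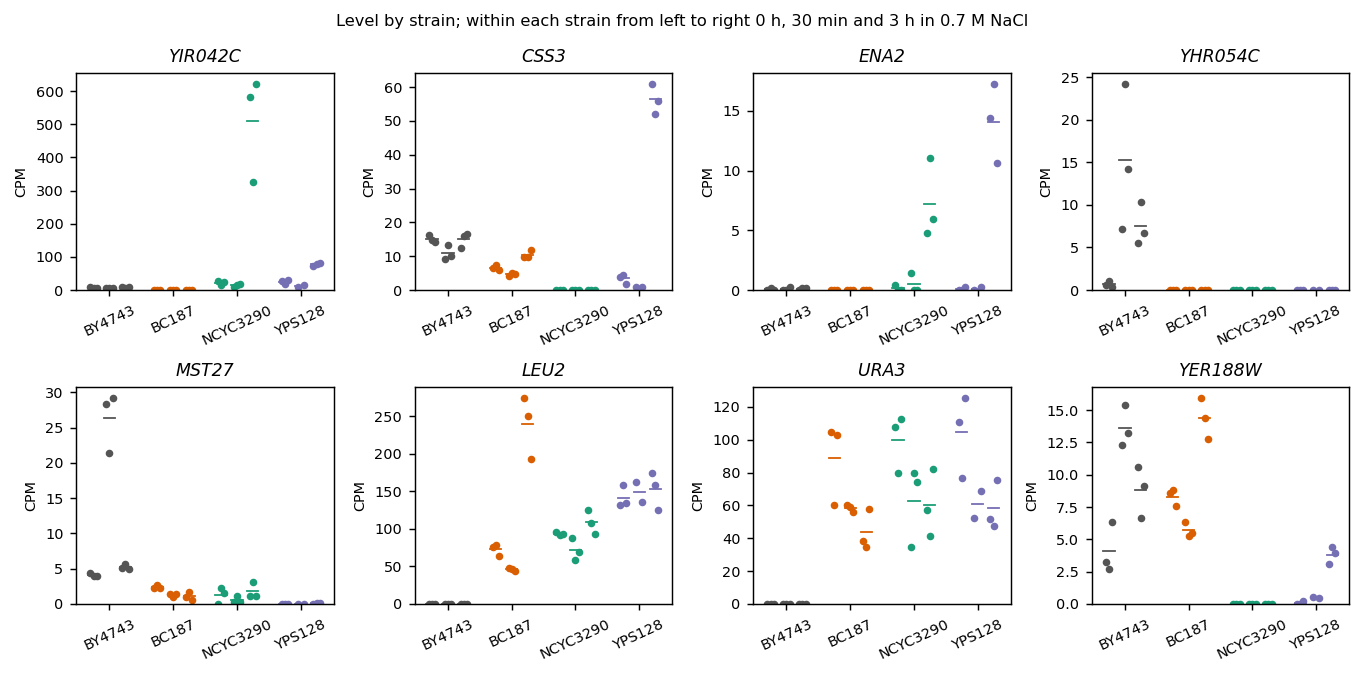
CPM of 8 of the genes by strain, 1 point per library with the group mean as a line; within each strain the groups run from left to right as 0 h, 30 min and 3 h in 0.7 M NaCl. YIR042C at 3 h in NCYC3290 and *CSS3* at 3 h in YPS128 lie above all other libraries of their panels, and *LEU2* and *URA3* are at 0 in BY4743.

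Intron and Ty rows also responded. *SCEI* fell in BY4743 at 30 min by 1.26 ± 0.16, from 506 to 581 counts to 127 to 366, and in BC187 by 0.87 ± 0.15 at 30 min and 0.96 ± 0.15 at 3 h (adjusted p = 8.1e-07, 0.00015 and 2.2e-05). *AI5_BETA* fell in BC187 at 3 h by 0.96 ± 0.26 (adjusted p = 0.0031) and rose in YPS128 by 0.89 ± 0.26 (adjusted p = 0.0043), though not without YPS128 replicate 1 (adjusted p = 0.080). The response in BC187 minus that in YPS128 was -1.85 ± 0.37 (adjusted p = 0.00095). The Ty3 row YGR109W-B rose wherever it was read, by 1.49 ± 0.19 at 30 min in BY4743 and by 1.55 ± 0.21 in NCYC3290 and 1.97 ± 0.19 in YPS128 at 3 h (adjusted p = 4.1e-07, 9.5e-07 and 2.9e-09). The Ty1 rows YMR045C and YBL005W-B fell in BY4743 at 3 h by 1.35 ± 0.17 and 1.08 ± 0.21 (adjusted p = 1.0e-07 and 0.00012).

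Several smaller sets of counts also moved. *EMA17* rose in every strain that reads it: by 1.65 ± 0.24 at 30 min in BY4743, and at 3 h by 1.27 ± 0.24 in BC187 and 1.23 ± 0.22 in NCYC3290 (adjusted p = 1.9e-06, 6.2e-05 and 3.9e-05). *AAD15* rose in YPS128 at 3 h from 2 to 8 counts to 34 to 41 (2.19 ± 0.46, adjusted p = 0.00024). YER188W, a gene of unknown function 8.12 kb from the right end of chromosome V, had 1 count in 3 YPS128 libraries before NaCl and 13, 21 and 19 at 3 h, a ratio of 56.8 (95% counting interval 9.76 to 2286; edgeR adjusted p = 1.6e-05), and in BY4743 it rose at 30 min from 15 to 36 counts to 51 to 64 (1.45 ± 0.29, adjusted p = 0.00013). *REE1* fell at 3 h in YPS128 by 1.63 ± 0.32 (adjusted p = 0.00021) and in BY4743 by 0.95 ± 0.24 (adjusted p = 0.0029, and 0.088 without BY4743 replicate 2).

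In BY4743 at 30 min the values of *SEO1*, YFR057W, *VAR1* and YOR082C, none of them among the 46 genes, rested on replicate 1. *SEO1* had 54 counts there and 4 in each of the other replicates, and its fitted log2 change of 1.66 became -0.35 without that library. YFR057W had 32 counts there and 0 and 1 in the others, while the fitted log2 change of *VAR1* went from 2.83 to -0.52. YOR082C had 461 counts there and 2 and 1 in the other replicates.

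Between strains, the responses of genes that both strains read were compared pair by pair, and 24 genes differed in at least 1 pair and time, of which 19 were among the 46 that reached 5 CPM at each time. At 30 min BY4743 was higher for 3 and lower for 1 of 21 genes against BC187 (of all genes 14.7% and 15.1%, together 29.8%), higher for 8 and lower for 1 of 30 against NCYC3290 (17.3% and 18.8%, together 36.1%; *SEO1*, YFR057W and YOR082C are among the 8), and higher for 6 and lower for 0 of 31 against YPS128 (18.7% and 19.7%, together 38.4%). At 3 h it was higher for 1 and lower for 3 against BC187 (1.75% and 4.02%, together 5.77%), higher for 0 and lower for 3 against NCYC3290 (7.57% and 7.75%, together 15.3%), and higher for 2 and lower for 6 against YPS128 (14.7% and 15.4%, together 30%). Of the 46 genes, BY4743 was higher for 2 and lower for 1 of 18 against BC187 at 30 min. Against NCYC3290 it was higher for 4 and lower for 1 of 22, and against YPS128 higher for 5 and lower for 0 of 23. In the same order, the 3 h counts higher and lower were 1 and 3, 0 and 3, and 1 and 6. *SEO1*, YFR057W and YOR082C are not among the 46, and their 30 min values in BY4743 rest on replicate 1.

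The other strains shared fewer of the genes. BC187 was higher for 1 of 11 genes against NCYC3290 at 3 h (3.25% and 2.17% of all genes higher and lower, together 5.42%), and higher for 1 and lower for 4 of 14 against YPS128 (11.9% and 7.95%, together 19.9%), which all were among the 46 genes. NCYC3290 was higher for 1 of 18 against YPS128 at 3 h (2.12% and 2.95%, together 5.07%). At 30 min these pairs gave 0 calls by edgeR, with 2 of 11, 3 of 14 and 0 of 18 genes at an unadjusted p below 0.05. The shares of all genes higher and lower at 30 min were 1.18% and 0.617% for BC187 against NCYC3290 (together 1.8%), 2.9% and 0.934% for BC187 against YPS128 (together 3.84%), and 0.384% and 0.0834% for NCYC3290 against YPS128 (together 0.467%).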

How the data were processed

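The authors sequenced stranded, rRNA-depleted libraries as single-end reads of 100 bp, used Trimmomatic 0.3 for trimming, bwa-mem 0.7.12-r1039 for mapping to the S288c genome R64-1-1, and HT-Seq 0.6.0 for counting. The deposited values are raw counts with no normalization; the strand and multiple-mapping settings are not given in the sources used here. Near-identical copies, overlapping rows and antisense pairs are therefore uncertain. Per the labels, the table's columns were matched to samples by strain, replicate and time.

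Coordinates and sequences come from NCBI RefSeq's S288c R64; 6025 IDs matched by locus tag and 7 by synonym, and 4 of the 63 genes did not match. Windows of 100 bases were looked up on both strands of the genome.

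The genes and gene lists were chosen with earlier results of these data known. Named genes are the most highly read of each set of strains, those on the lists, and those with the largest called changes; others with a test were chosen after their values were seen. Counting intervals (95%) and floors cover counting error only.

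NaCl responses were fitted with edgeR 4.0.16 (R 4.3.3) on 34 libraries after filterByExpr and TMM, with the 12 strain-by-time groups and the replicate number as terms. YPS128 replicate 3 at 3 h was left out, as the study used 2 YPS128 replicates. Each contrast had its own Benjamini-Hochberg adjustment over all genes fitted. Replicates are separate cultures, and their chi-square per degree of freedom ran from 4.18 to 61.1. On simulated counts for YPS128 at 3 h, 200 of 5864 genes were given a log2 change of 1.5. Of these 187 (93.5%) were recovered, with 3.61% of calls false, and the share does not extend to smaller changes. In the data 2045 genes rose and 1747 fell in that comparison, and library totals in place of TMM moved the median change by 0.76. With only 200 changed genes, the simulation does not cover errors from the choice of scaling. The counts over the 46 genes at 5 CPM at each time alone were added with the values known. DESeq2 1.42.0, other scalings, filters and blocks, and each culture left out were alternatives.

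Per the study's methods, all strains of one replicate were cultured side by side. Same-numbered libraries of different strains deviated together before NaCl (18 of 18 pairs over 0.1, 0.41 to 0.75) and at 3 h (18 of 18, 0.14 to 0.79), and at 30 min in 7 of 15 pairs (-0.45 to 0.42).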

Additional observations from a re-analysis of the deposited data

Results flagged for a closer look

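For each pair of strains and time point with any call, the gene with the largest difference in NaCl response, by edgeR's test of the difference itself, is given here as a value. YIR042C changed less at 3 h in BY4743 than in NCYC3290, by -3.92 on the log2 scale, and more in NCYC3290 than in YPS128, by 2.92. YER188W rose less at 3 h in BY4743 than in YPS128 (-3.76) and less in BC187 than in YPS128 (-4.16), from 1 count in 3 YPS128 libraries before NaCl; the first difference lost its call without YPS128 replicate 2 (-3.06, edgeR adjusted p = 0.053). *LEU2* rose more at 3 h in BC187 than in NCYC3290 (1.83). At 30 min the fitted log2 change of *MST27* was larger in BY4743 than in BC187 (3.32), and that of the unannotated YGL052W larger in BY4743 than in YPS128 (3.99), where it had 0 and 2 counts at 30 min; both reached 5 CPM only through NaCl libraries, so these are descriptions. The Ty2 row YLR410W-B changed less at 3 h in BY4743 than in BC187 (-2.70), where it had 0 to 8 counts per library, and lost its call in 6 alternatives (adjusted p 0.057 to 0.15). The difference of 8.79 for YOR082C at 30 min between BY4743 and NCYC3290 rests on 461 counts in BY4743 replicate 1 against 2 and 1 in the other replicates.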

How the results depend on the processing

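Under other settings the rule gave 106 genes with a level of 2 CPM or more and 41 with 10 CPM or more, against 63; within 10 kb of a chromosome end there were 10 genes, against 23 within 25 kb. Leaving out each culture in turn, the genes changed at 30 min were 14 to 22 in BY4743 (main 22), 3 in BC187 whichever was left out (5), 2 to 4 in NCYC3290 (4) and 1 to 2 in YPS128 (2), and at 3 h 6 to 11 in NCYC3290 (13). Genes with a response difference in pairs with BY4743 were 13 to 21 (22). Library totals in place of TMM gave 22 at 3 h in NCYC3290 and 1 at 30 min in YPS128; they moved the median change of all genes by 0.29 and 0.15 in BY4743 (30 min, 3 h), by 0.26, 0.58 and 0.76 at 3 h in BC187, NCYC3290 and YPS128 and by -0.11 at 30 min in YPS128. With the culture as the replicate block the YPS128 count at 30 min was 1, and with no replicate block it stayed at 2; with the culture block the fallen genes in NCYC3290 went from 2 to 1 at each time. No other count of genes that rose, fell or changed with NaCl moved by over 1.5 times with either. Over the 46 genes that reached 5 CPM at each time alone, an alternative added with the values known, 8 genes changed at 3 h in NCYC3290, and the other 7 totals of changed genes stayed within 1.5 times. Of 968 values of 81 single results under alternatives, 905 kept their direction and their side of the threshold, 57 lost the call and 6 reversed. Reversed were *SEO1* and *VAR1* at 30 min in BY4743, which ran from -0.52 to 2.39 and from -0.37 to 3.58 with each culture left out, and stood at -0.35 and -0.52 without only replicate 1 at 30 min, an alternative added with the values known, under which BY4743 had 18 changed genes at each time. *LEU2* at 3 h was 0.17 in YPS128 and 0.21 in NCYC3290 by library totals. Calls lost without 1 culture included YKR104W at 30 min in NCYC3290 (edgeR adjusted p 0.056 to 0.32) and the YLR410W-B difference (0.070 to 0.15). Counts of 0 in a strain set only an upper bound of 3 counts on the sum over its libraries.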
